A study of Mus musculus with 12 samples.

Results

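Interferon-stimulated genes are the genes that cells switch on in response to interferons, the secreted proteins of antiviral defense. The 43 genes described here were taken by symbol from a list of well known members of this class, and all 43 were found among the 51490 genes of the table. The list was chosen with earlier results of these data known. The counts below therefore describe these 43 genes and are no independent test of the class. Of these, 42 had enough counts to be tested, along with 15037 genes in all. *Oas3*, with between 0 and 9 estimated counts per library, was the gene left out.

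The RNA came from iMEPM cells, an immortalized line of mouse embryonic palatal mesenchyme, the connective tissue precursor of the palate. The study took this line from a male *Cdkn2a*-/- embryo. All cells carried a lentiviral short hairpin RNA (shRNA), had been selected with puromycin and sorted for GFP, and were either a scramble line, whose shRNA has no intended target, or a shSrsf3 line, whose shRNA targets *Srsf3*, a splicing factor of the serine/arginine-rich family. Each line was left unstimulated (-PDGF-AA) or given 10 ng/mL PDGF-AA, a ligand of the receptor PDGFRα, for 1 hr (+PDGF-AA), with 3 replicates in each of the 4 groups and 12 libraries in all. The study describes serum starvation before ligand treatment for its other experiments, and its RNA-seq section does not mention that step. Since each shRNA is represented by 1 stable line, the effect of the shRNA and any other difference between the lines cannot be told apart, and the p-values measure the spread between cultures of these lines. The knockdown was visible in every library, with *Srsf3* between 199 and 231 CPM (read counts adjusted for library size) in the 6 scramble libraries and between 161 and 170 CPM in the 6 shSrsf3 libraries. Library totals ran from 30958966 to 76123359 estimated counts. Among stimulated cells they were between 57313132 and 65707963 in scramble and between 30958966 and 37334733 in shSrsf3 libraries. Depth and line thus went together there, while the unstimulated groups overlapped in depth.

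Type I interferons bind the receptor subunits Ifnar1 and Ifnar2, whose kinases Jak1 and Tyk2 activate the complex ISGF3. This complex, which contains Stat2 and Irf9, binds the interferon-stimulated response element (ISRE) in the promoters of its target genes. Many cells keep a low, steady level of these genes without infection, and *Stat2* and *Irf9* are themselves targets of the pathway.

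Most of the interferon-stimulated genes were lower in shSrsf3 cells than in scramble cells, whether or not PDGF-AA had been added. Without ligand, 35 of the 42 were lower and 2, *Ifit2* and *Ifit3*, were higher at an adjusted p of 0.05 or less (edgeR's quasi-likelihood test with Benjamini-Hochberg adjustment over all tested genes). Among all tested genes, 23.7% were lower and 22.2% were higher by the same rule. Upon ligand stimulation 36 were lower and 0 were higher, against 20.7% and 20.3% of all tested genes. The same 35 genes were lower in both comparisons, and *Gbp2* was called in addition among the stimulated cells.

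The median log2 fold change of the 42 genes was -0.71 without ligand and -0.78 with it, where the medians over all tested genes were -0.02 and -0.01. Requiring in addition a fold change of 2 or more, 10 genes were lower and 0 were higher in unstimulated cells (2.76% and 2.99% of all tested genes), and 15 were lower and 0 were higher in stimulated cells (2.57% and 2.85%). The 10 genes were *Ifi44*, *Ifit1*, *Iigp1*, *Mx2*, *Oas1a*, *Oas2*, *Oasl2*, *Parp14*, *Sp100* and *Zbp1*, and all 10 were among the 15. Of the 42 genes, 6, namely *Iigp1*, *Mx1*, *Oas1a*, *Oas2*, *Rsad2* and *Sp100*, reached the count minimum only through scramble libraries, so these could hardly have come out higher in shSrsf3 cells and give no support to the counts above or to the separation and level classes below. Of the 36 others, 31 were lower without ligand and 32 with it. With the 2-fold minimum, 6 and 11 of these 36 were lower.

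**Figure D1:**
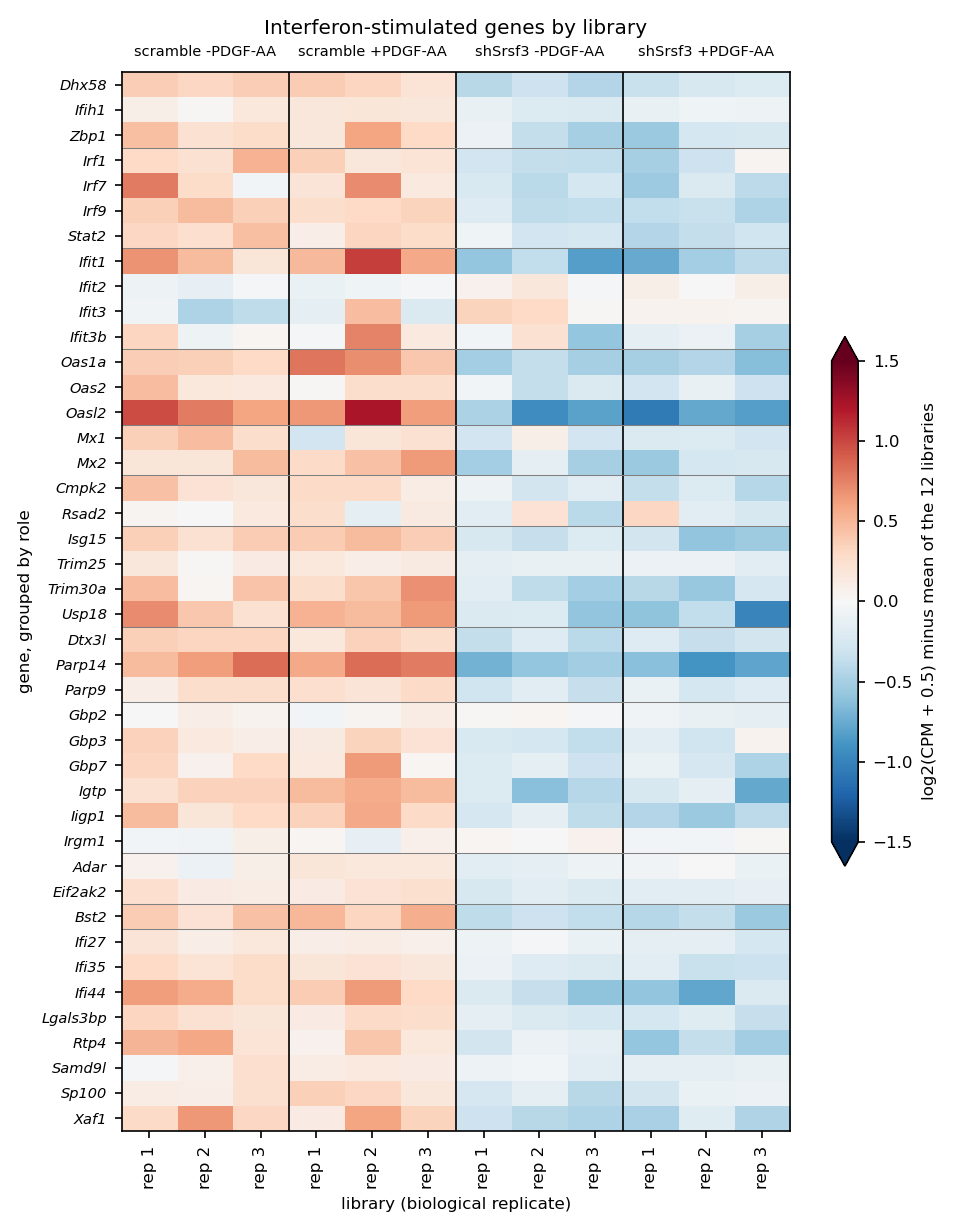
Level of each of the 42 tested interferon-stimulated genes (rows, grouped by role) in each of the 12 libraries (columns, 3 replicates in each of 4 groups), as log2(CPM + 0.5) minus the mean of that gene over the 12 libraries. Most rows are red in the 6 scramble libraries and blue in the 6 shSrsf3 libraries, while *Ifit2*, *Ifit3*, *Irgm1*, *Gbp2* and *Rsad2* do not follow this pattern. Some other rows, among them *Ifit3b* and *Mx1*, break it in part.

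The separation held library by library. For 34 of the 42 genes every shSrsf3 library lay below every scramble library, an arrangement found in 16.4% of all tested genes, and for 0 of the 42 did every shSrsf3 library lie above, against 16.9%. Without the 6 genes that passed through scramble libraries alone, the first count was 30 of 36. *Adar* was the 1 gene lower in both comparisons whose libraries overlapped. Summed over the 42 genes, the level was between 533.3 and 569.1 CPM in the scramble libraries and between 420.9 and 437.1 CPM in the shSrsf3 libraries.

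The promoters of some of the genes that fell and held the sequence that ISGF3 recognizes are shown so that its copies can be read. In a window from 250 bases before to 50 bases after the start of the Ensembl canonical transcript, 22 of the 43 genes (51.2%) held the ISRE core, which is GAAA, any 2 bases and GAAA again, on either strand, compared with 834 of 21738 protein-coding genes (3.84%). The motif TTCNNNGAA, the gamma-activated site of interferon gamma responses, lay in 10 of the 43 windows (23.3%) and in 8.81% of all windows. Both motifs were searched on both strands, and a match to one may overlap a match to the other. The sequences below read 5′ to 3′ in the direction of the gene, from the GRCm39 genome, with the ISRE core in capitals (TTTC when it lies on the opposite strand). They belong to 7 of the genes with large falls that held the core (*Iigp1*, with 1 copy, was another, and its window is not shown), namely *Oas1a* (chr5:121045591-121045653, minus strand), *Usp18* (chr6:121222737-121222856, plus strand), *Zbp1* (chr2:173060725-173060860, minus strand), *Oas2* (chr5:120887935-120888034, minus strand), *Ifit1* (chr19:34618140-34618258, plus strand), *Trim30a* (chr7:104114408-104114481, minus strand) and *Isg15* (chr4:156285304-156285398, minus strand).
Oas1a: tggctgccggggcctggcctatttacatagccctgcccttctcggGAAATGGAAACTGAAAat
Usp18: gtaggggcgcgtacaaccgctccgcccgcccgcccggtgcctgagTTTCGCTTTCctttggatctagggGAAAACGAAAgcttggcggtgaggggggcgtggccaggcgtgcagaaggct
Zbp1: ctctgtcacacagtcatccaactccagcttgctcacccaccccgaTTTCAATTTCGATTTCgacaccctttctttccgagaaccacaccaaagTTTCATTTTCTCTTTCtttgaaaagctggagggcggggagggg
Oas2: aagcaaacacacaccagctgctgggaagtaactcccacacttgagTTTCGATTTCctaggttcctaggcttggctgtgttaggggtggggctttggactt
Ifit1: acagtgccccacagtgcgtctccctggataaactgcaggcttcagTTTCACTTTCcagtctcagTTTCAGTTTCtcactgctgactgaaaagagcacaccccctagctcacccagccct
Trim30a: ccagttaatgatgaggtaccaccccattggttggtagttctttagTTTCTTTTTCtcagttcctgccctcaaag
Isg15: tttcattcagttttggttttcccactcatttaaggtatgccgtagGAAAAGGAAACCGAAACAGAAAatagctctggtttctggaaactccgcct

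*Ifit3* (chr19:34560728-34560861, plus strand) and *Irgm1* (chr11:48762248-48762322, minus strand), chosen for contrast after their values were seen, were not lower in either comparison and held the core as well.
Ifit3: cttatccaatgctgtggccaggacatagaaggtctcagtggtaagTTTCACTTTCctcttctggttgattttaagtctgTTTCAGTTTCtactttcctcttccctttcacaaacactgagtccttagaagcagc
Irgm1: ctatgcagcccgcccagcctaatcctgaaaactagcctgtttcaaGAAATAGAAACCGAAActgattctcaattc

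As a description, with no test, the core was in 16 of the 35 windows of genes lower in both comparisons (45.7%) and in 6 of the 8 other windows (75%). Among genes whose mean fall over the 2 comparisons was 2-fold or more it was in 7 of 15 (46.7%), and among the rest of the tested genes in 14 of 27 (51.9%). Genes that reached the count minimum only through scramble libraries are among those in these classes. *Isg15* had 3 overlapping copies and fell by about as much as *Bst2*, with 2, while *Parp14* and *Oasl2*, with none in this window, had larger falls than either.

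The 4 transcription factors among the 43 genes were all lower. *Stat2*, a subunit of ISGF3, was at 30.6, 29.3 and 33.8 CPM in the scramble -PDGF-AA libraries and at 23.4, 19.9 and 20.4 CPM in the shSrsf3 -PDGF-AA libraries. With ligand it was at 26.4, 30.8 and 29.7 CPM in scramble and at 17.9, 19.1 and 19.9 CPM in shSrsf3 cells. The groups did not overlap, and the log2 fold change was -0.55 ± 0.07 (SE) without ligand (adjusted p = 4.57e-05) and -0.61 ± 0.08 with it (adjusted p = 2.73e-05).

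*Irf9*, the DNA-binding subunit of ISGF3, was at 18.8, 20.3 and 18.8 CPM in unstimulated scramble cells and at 12.7, 11.1 and 11.1 CPM in unstimulated shSrsf3 cells. The stimulated values were 17.6, 18 and 18.4 CPM against 11.2, 11.5 and 10.4 CPM. These are falls of -0.73 ± 0.06 (adjusted p = 5.27e-07) and -0.71 ± 0.06 (adjusted p = 1.13e-06) on the log2 scale, with no overlap between the lines. *Irf1*, a factor that also acts downstream of interferon gamma, was the highest of the 4 per kilobase of transcript (8.51 CPM per kb over the 12 libraries). Its levels were 21.8, 20.9 and 25.7 CPM in scramble against 14.4, 13.7 and 13.6 CPM in shSrsf3 cells without ligand, and 22.8, 20 and 20.4 against 12.4, 14.2 and 18.3 CPM with ligand. The third stimulated shSrsf3 library thus came close to the scramble range, and the fold changes were -0.72 ± 0.11 (adjusted p = 0.000142) and -0.50 ± 0.11 (adjusted p = 0.00302). *Irf7*, which amplifies type I interferon production, was at 2.29, 1.47 and 1.08 CPM in unstimulated scramble cells and at 0.893, 0.729 and 0.859 CPM in unstimulated shSrsf3 cells. It was lower by -0.94 ± 0.28 (adjusted p = 0.0154) and, with ligand, by -1.10 ± 0.30 (adjusted p = 0.00976), but the first call was lost without scramble -PDGF-AA replicate 1, its highest library (-0.61, adjusted p = 0.0868), or shSrsf3 -PDGF-AA replicate 2 (-0.85, adjusted p = 0.0597).

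**Figure D2:**
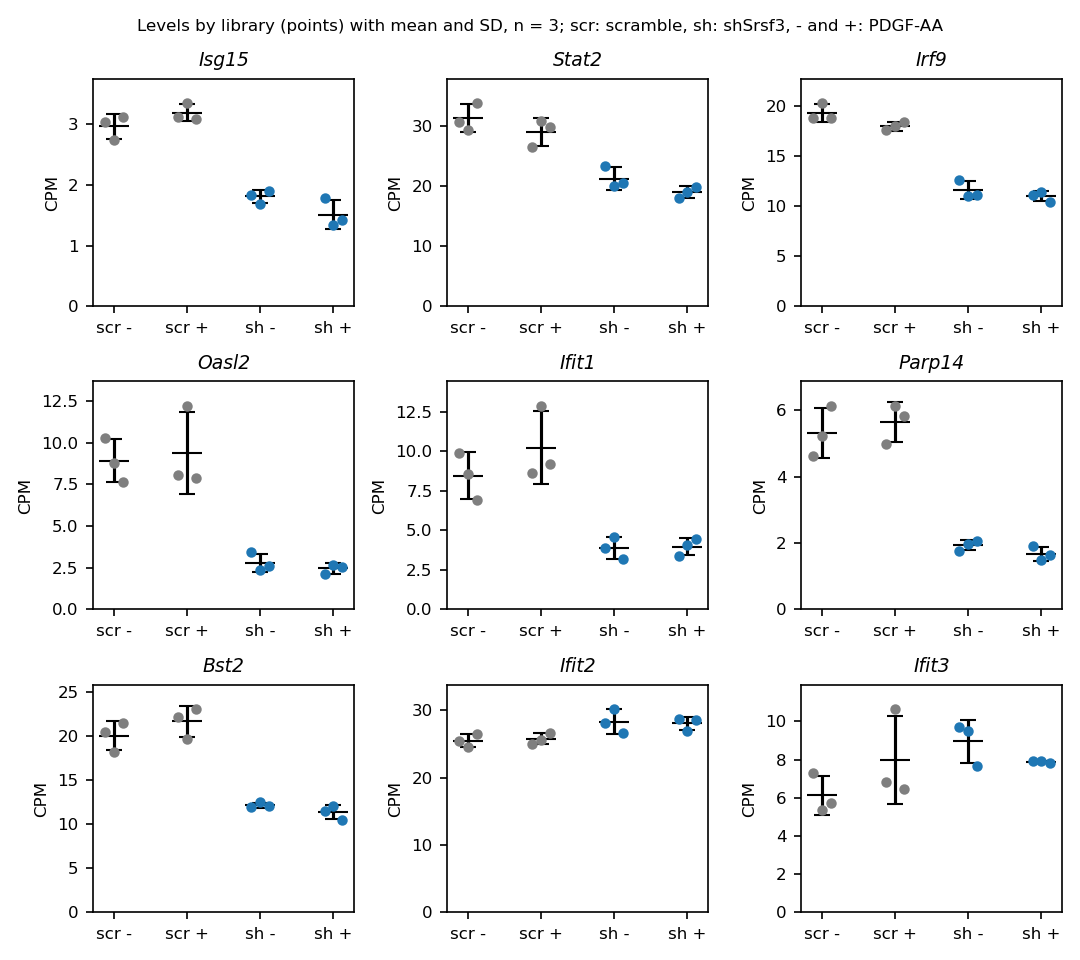
CPM (y axes, from 0) in each library (points) with the mean and SD of each group of 3 (bars), for 2 ISGF3 subunits, 5 other genes with falls and the 2 genes that were higher without ligand. For *Isg15*, *Stat2*, *Irf9*, *Oasl2*, *Ifit1*, *Parp14* and *Bst2* all shSrsf3 libraries (blue) lie below all scramble libraries (grey), whereas the lines lie close together for *Ifit2* and *Ifit3*.

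Among the OAS genes, whose family includes makers of the 2-5A messenger that activates RNase L, all 3 tested genes were lower in both comparisons. *Oas1a* and *Oas2* reached the count minimum only through scramble libraries. *Oasl2*, the highest of them per kilobase, was at 10.3, 8.8 and 7.67 CPM in unstimulated scramble cells and at 3.42, 2.35 and 2.63 CPM in unstimulated shSrsf3 cells. Stimulated cells gave 8.05, 12.2 and 7.9 CPM against 2.11, 2.69 and 2.58 CPM. The log2 fold changes were -1.65 ± 0.19 (adjusted p = 9.55e-06) and -1.94 ± 0.20 (adjusted p = 4.64e-06), and the groups were well apart.

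*Oas1a* was lower still in relative terms, from 0.701, 0.69 and 0.646 CPM to 0.155, 0.228 and 0.161 CPM without ligand and from 1.13, 1.01 and 0.727 CPM to 0.16, 0.186 and 0.0965 CPM with it. Its log2 fold changes were -1.88 ± 0.28 (adjusted p = 0.000123) and -2.66 ± 0.31 (adjusted p = 1.39e-05). Of its 31-base sequences 22.8% occur in other transcripts as well, mainly *Oas1g*, so reads could have been divided between them. *Oas2* was near the count minimum, at 0.52, 0.322 and 0.315 CPM against 0.22, 0.0759 and 0.134 CPM without ligand and 0.249, 0.39 and 0.386 against 0.107, 0.186 and 0.0965 CPM with it. Its fold changes of -1.35 ± 0.40 (adjusted p = 0.0144) and -1.39 ± 0.46 (adjusted p = 0.0256) were not called without scramble -PDGF-AA replicate 1 or shSrsf3 -PDGF-AA replicate 2 in the first case (adjusted p = 0.0667 and 0.0685), nor without any of 4 of the 6 stimulated libraries in the second (adjusted p of 0.0665 to 0.0998).

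The IFIT genes, whose products bind viral RNA, did not move together. Their 4 genes lie near each other on chromosome 19, between 34527932 and 34632174. *Ifit1* was at 9.87, 8.57 and 6.91 CPM in unstimulated scramble cells and at 3.87, 4.55 and 3.17 CPM in unstimulated shSrsf3 cells, and at 8.64, 12.9 and 9.18 against 3.37, 4.06 and 4.44 CPM after ligand. It fell by 1.10 ± 0.18 on the log2 scale without ligand (adjusted p = 0.000212) and by 1.38 ± 0.18 with it (adjusted p = 4.6e-05), with no overlap.

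*Ifit2*, the highest of the 4 per kilobase, was at 25.5, 24.6 and 26.5 CPM in unstimulated scramble cells and slightly higher, at 28.2, 30.2 and 26.6 CPM, in unstimulated shSrsf3 cells. The log2 fold change of 0.15 ± 0.05 passed the test (adjusted p = 0.0224), and the value with ligand, 0.13 ± 0.05, did not (adjusted p = 0.0646). The call was lost without scramble -PDGF-AA replicate 1 or 2 or shSrsf3 -PDGF-AA replicate 2 (adjusted p = 0.0536, 0.0854 and 0.117), and the value with ligand was called when either of 2 unstimulated libraries was left out. *Ifit3* was at 7.3, 5.38 and 5.7 CPM in unstimulated scramble cells and at 9.7, 9.47 and 7.68 CPM in unstimulated shSrsf3 cells (log2 fold change 0.57 ± 0.17, adjusted p = 0.0146). That call was lost without scramble -PDGF-AA replicate 2 (adjusted p = 0.0568) or shSrsf3 -PDGF-AA replicate 1 or 2 (adjusted p = 0.0579 and 0.0501), and at equal depth (0.44, adjusted p = 0.0629). With ligand the scramble libraries were at 6.84, 10.7 and 6.46 CPM and the shSrsf3 libraries at 7.91, 7.93 and 7.82 CPM, a fold change of -0.01 ± 0.17 (adjusted p = 0.961). The difference between these 2 fold changes, -0.58 ± 0.24, did not pass the test (adjusted p = 0.874). Of the 31-base sequences of *Ifit3*, 39.4% were shared, mainly with *Ifit3b*, and 58% of those of *Ifit3b* were shared in turn, so the division of reads between the pair is uncertain. *Ifit3b* itself had fold changes of -0.23 ± 0.31 (adjusted p = 0.585) and -0.77 ± 0.33 (adjusted p = 0.0762). The second was called by DESeq2's test (adjusted p = 0.044) and at equal depth (-0.87, adjusted p = 0.0456).

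Isg15, a ubiquitin-like protein that is attached to other proteins, and its protease Usp18 were both lower, together with 2 TRIM ubiquitin ligases. *Isg15* was at 3.04, 2.74 and 3.12 CPM in unstimulated scramble cells and at 1.84, 1.69 and 1.91 CPM in unstimulated shSrsf3 cells, and at 3.12, 3.35 and 3.09 against 1.79, 1.33 and 1.42 CPM with ligand. Its log2 fold changes were -0.72 ± 0.13 (adjusted p = 0.000469) and -1.07 ± 0.14 (adjusted p = 2.71e-05). *Usp18*, which also restrains signaling from the type I receptor, went from 2.78, 2.16 and 1.86 CPM to 1.23, 1.25 and 0.832 CPM without ligand, and from 2.39, 2.3 and 2.63 CPM to 0.828, 1.05 and 0.515 CPM with it. No shSrsf3 library of either gene reached a scramble library. For *Usp18* the fold changes were -0.998 ± 0.22 (adjusted p = 0.00222) and -1.60 ± 0.24 (adjusted p = 0.000121).

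*Trim30a* was at 1.84, 1.24 and 1.79 CPM against 1.01, 0.805 and 0.698 CPM without ligand and at 1.54, 1.77 and 2.24 against 0.775, 0.65 and 0.933 CPM with it, with fold changes of -0.93 ± 0.22 (adjusted p = 0.00362) and -1.24 ± 0.23 (adjusted p = 0.000779). Of its 31-base sequences 21.1% occur elsewhere in the transcriptome. *Trim25*, which modifies the RNA sensor RIG-I, was the highest of this role per kilobase and changed least. Its means were 58.3 ± 3.32 CPM (SD, n = 3) in scramble and 49.8 ± 0.624 CPM in shSrsf3 cells without ligand, and 59.3 ± 1.29 against 49.9 ± 1.59 CPM with it (log2 fold changes of -0.23 and -0.25, adjusted p = 0.000986 and 0.00054).

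The 3 sensors of nucleic acids were lower. *Ifih1*, which encodes the RNA sensor MDA5 and was the highest of the 3 per kilobase, was at 4.75, 4.48 and 5.01 CPM against 4.08, 3.77 and 3.76 CPM without ligand and at 5.03, 5.1 and 5.05 against 4.06, 4.21 and 4.18 CPM with it. The log2 fold change was -0.29 ± 0.08 in both comparisons (adjusted p = 0.00765 and 0.0111), a small fall with no overlap. The call with ligand was lost without a count filter (adjusted p = 0.058). *Dhx58*, which encodes the related protein LGP2, had 2.34, 2.23 and 2.35 CPM against 1.15, 1.28 and 1.13 CPM, and 2.38, 2.25 and 2.04 against 1.26, 1.36 and 1.42 CPM. It fell by 0.96 ± 0.13 (adjusted p = 5.32e-05) and by 0.73 ± 0.14 (adjusted p = 0.000721). *Zbp1*, a sensor of Z-form nucleic acids, was below 1 CPM throughout, at 0.779, 0.598 and 0.63 CPM against 0.376, 0.228 and 0.161 CPM, and at 0.548, 0.904 and 0.649 against 0.134, 0.279 and 0.29 CPM. Its fold changes were -1.31 ± 0.34 (adjusted p = 0.0061) and -1.59 ± 0.37 (adjusted p = 0.00357).

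Parp14, Parp9 and Dtx3l act in ADP-ribosylation, the latter as partners in 1 complex, and their genes lie close together on chromosome 16. All 3 were lower. *Parp14* was at 4.62, 5.22 and 6.12 CPM in unstimulated scramble cells and at 1.76, 1.97 and 2.07 CPM in unstimulated shSrsf3 cells, and at 4.98, 6.13 and 5.83 against 1.9, 1.49 and 1.64 CPM with ligand, with fold changes of -1.48 ± 0.13 (adjusted p = 9.62e-07) and -1.75 ± 0.14 (adjusted p = 4.05e-07). *Dtx3l* fell less, from 11.7, 11.4 and 11.3 CPM to 6.88, 7.76 and 6.66 CPM and from 10.1, 11.6 and 10.9 CPM to 7.8, 6.94 and 7.31 CPM (-0.68 ± 0.07, adjusted p = 5.68e-06, and -0.56 ± 0.08, adjusted p = 5.12e-05). *Parp9*, the highest of the 3 per kilobase, went from 15.8, 17.8 and 17.8 CPM to 11.9, 13 and 11.5 CPM without ligand and from 17.7, 16.9 and 18.1 CPM to 13.8, 12.2 and 12.8 CPM with it (-0.50 ± 0.07, adjusted p = 3.8e-05, and -0.44 ± 0.07, adjusted p = 0.000138). The range of change within this neighbourhood was thus wide, and no library of the 3 genes overlapped between the lines.

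The interferon-inducible GTPases, which act on the membranes around intracellular pathogens, were divided. Of the 6, *Iigp1*, *Igtp*, *Gbp3* and *Gbp7* were lower in both comparisons, *Gbp2* only with ligand and *Irgm1* in neither. *Iigp1* was at 0.649, 0.437 and 0.514 CPM against 0.194, 0.243 and 0.134 CPM without ligand and at 0.548, 0.727 and 0.51 against 0.107, 0.0619 and 0.129 CPM with it (-1.42 ± 0.30, adjusted p = 0.00182, and -2.55 ± 0.37, adjusted p = 9.2e-05). *Igtp* went from 2.1, 2.32 and 2.32 CPM to 1.44, 0.942 and 1.15 CPM and from 2.61, 2.77 and 2.6 CPM to 1.39, 1.52 and 0.805 CPM (-0.93 ± 0.20, adjusted p = 0.00194, and -1.09 ± 0.21, adjusted p = 0.000785). For *Igtp* the lines did not overlap, and *Iigp1* reached the count minimum only through scramble libraries.

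*Gbp7* was at 1.53, 1.2 and 1.49 CPM against 0.906, 0.972 and 0.805 CPM, and at 1.29, 2.02 and 1.16 against 1.01, 0.867 and 0.676 CPM. The fold changes were -0.64 ± 0.23 (adjusted p = 0.0357) and -0.79 ± 0.24 (adjusted p = 0.0178), and the first call was lost without any 1 of 5 of the 6 unstimulated libraries (adjusted p of 0.0588 to 0.0988), the second without scramble +PDGF-AA replicate 2 (adjusted p = 0.0862) or shSrsf3 +PDGF-AA replicate 3 (adjusted p = 0.0763). *Irgm1*, the highest of the GTPases per kilobase, was level, at 35.8, 35.5 and 39.1 CPM against 37.8, 36.9 and 38.5 CPM without ligand and at 37.7, 33.9 and 38.8 against 35.8, 35.8 and 37.4 CPM with it. Its log2 fold changes were 0.03 ± 0.05 (adjusted p = 0.624) and -0.02 ± 0.05 (adjusted p = 0.799), and intervals of 1.96 standard errors ran from -0.07 to 0.14 and from -0.13 to 0.09. *Gbp2* differed by -0.04 ± 0.05 without ligand (adjusted p = 0.531) and fell by 0.15 ± 0.05 with it (adjusted p = 0.0323), a call lost without any of 4 of the 6 stimulated libraries (adjusted p of 0.0618 to 0.14).

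*Bst2*, which encodes tetherin, a membrane protein that holds budding viruses at the cell surface, had the highest level per kilobase of all 43 genes (20.2 CPM per kb). It was at 20.4, 18.2 and 21.4 CPM against 11.9, 12.5 and 12 CPM without ligand and at 22.2, 19.6 and 23.1 against 11.5, 12.1 and 10.5 CPM with it. The log2 fold changes were -0.72 ± 0.07 (adjusted p = 3.58e-06) and -0.93 ± 0.08 (adjusted p = 5e-07), far outside the spread of the replicates.

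The Mx proteins are dynamin-like GTPases that block virus entry and replication. *Mx2*, the higher of the 2 per kilobase, was at 0.598, 0.598 and 0.845 CPM against 0.181, 0.38 and 0.188 CPM without ligand and at 0.681, 0.815 and 1 against 0.16, 0.31 and 0.322 CPM with it (-1.43 ± 0.34, adjusted p = 0.00344, and -1.67 ± 0.36, adjusted p = 0.00193). *Mx1* was between 0 and 0.345 CPM in scramble and between 0 and 0.152 CPM in shSrsf3 libraries, and its log2 values of -2.31 ± 0.93 and -2.65 ± 1.44 did not pass the test (adjusted p = 0.057 and 0.163). *Cmpk2*, a nucleotide kinase gene that neighbours *Rsad2*, had 1.35, 1.08 and 1.03 CPM against 0.79, 0.623 and 0.725 CPM, and 1.16, 1.17 and 0.974 against 0.561, 0.681 and 0.515 CPM. It was lower by -0.68 ± 0.20 (adjusted p = 0.0122) and -0.91 ± 0.21 (adjusted p = 0.00373), although the first call was lost without scramble -PDGF-AA replicate 1 or shSrsf3 -PDGF-AA replicate 2 (adjusted p = 0.0511 and 0.0555). *Rsad2*, the gene of the antiviral enzyme viperin, was at or below 0.321 CPM in all libraries, and a difference was not detectable at this depth (-0.52 ± 0.71 and -0.36 ± 0.73, adjusted p = 0.575 and 0.73).

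Both RNA-binding members were modestly lower. *Eif2ak2*, which encodes the double-stranded RNA kinase PKR and was the higher of the 2 per kilobase, was at 54.5, 49.6 and 49.4 CPM against 38.6, 40.8 and 39.1 CPM without ligand and at 49.6, 53.1 and 54 against 40.6, 40.8 and 41.8 CPM with it (-0.37 ± 0.05, adjusted p = 2.76e-05, and -0.35 ± 0.05, adjusted p = 6.13e-05). *Adar*, the gene of the main adenosine-to-inosine RNA editing enzyme, had log2 fold changes of -0.16 ± 0.05 (adjusted p = 0.0161) and -0.22 ± 0.05 (adjusted p = 0.00199), and the first call was lost without any of 4 of the 6 unstimulated libraries (adjusted p of 0.0571 to 0.0846).

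The 8 remaining genes were lower in both comparisons. *Sp100*, a component of nuclear bodies, was at 0.26, 0.253 and 0.332 CPM against 0.0906, 0.137 and 0.0268 CPM, and at 0.399, 0.372 and 0.294 against 0.0802, 0.155 and 0.161 CPM (-1.60 ± 0.41, adjusted p = 0.00585, and -1.43 ± 0.41, adjusted p = 0.0132). The second call was lost without shSrsf3 +PDGF-AA replicate 1 (adjusted p = 0.0821). *Ifi44* went from 4.26, 4.05 and 3.23 CPM to 2.15, 1.93 and 1.53 CPM and from 3.52, 4.31 and 3.31 CPM to 1.55, 1.3 and 2.16 CPM (-1.01 ± 0.18, adjusted p = 0.000479, and -1.16 ± 0.19, adjusted p = 0.000292). *Xaf1*, which promotes apoptosis, went from 6.47, 8.48 and 6.56 CPM to 4.09, 3.78 and 3.65 CPM and from 5.71, 8.12 and 6.72 CPM to 3.58, 4.55 and 3.67 CPM (-0.89 ± 0.14, adjusted p = 0.000183, and -0.80 ± 0.15, adjusted p = 0.000653). For *Ifi44* and *Xaf1* the lines did not overlap, and *Sp100* reached the count minimum only through scramble libraries.

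*Rtp4* went from 3.64, 3.84 and 2.85 CPM to 1.9, 2.23 and 2.15 CPM and from 2.52, 3.37 and 2.74 CPM to 1.44, 1.76 and 1.51 CPM (-0.71 ± 0.15, adjusted p = 0.00175, and -0.87 ± 0.16, adjusted p = 0.000785), with 26.1% of its 31-base sequences shared with other transcripts. *Lgals3bp*, which encodes a secreted glycoprotein and was the highest of these 8 per kilobase, was at 41.4, 38.7 and 37.3 CPM against 29.8, 28.3 and 27.2 CPM without ligand and at 35.9, 40.3 and 39.5 against 27.3, 29 and 25.8 CPM with it (-0.46 ± 0.06, adjusted p = 2.33e-05, and -0.49 ± 0.06, adjusted p = 1.54e-05). *Ifi27*, *Ifi35* and *Samd9l* fell by less, with log2 fold changes between -0.48 and -0.21 over both comparisons, and for *Samd9l* the call without ligand was lost without replicate 3 of either unstimulated group (adjusted p = 0.0518 and 0.0553).

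**Figure D3:**
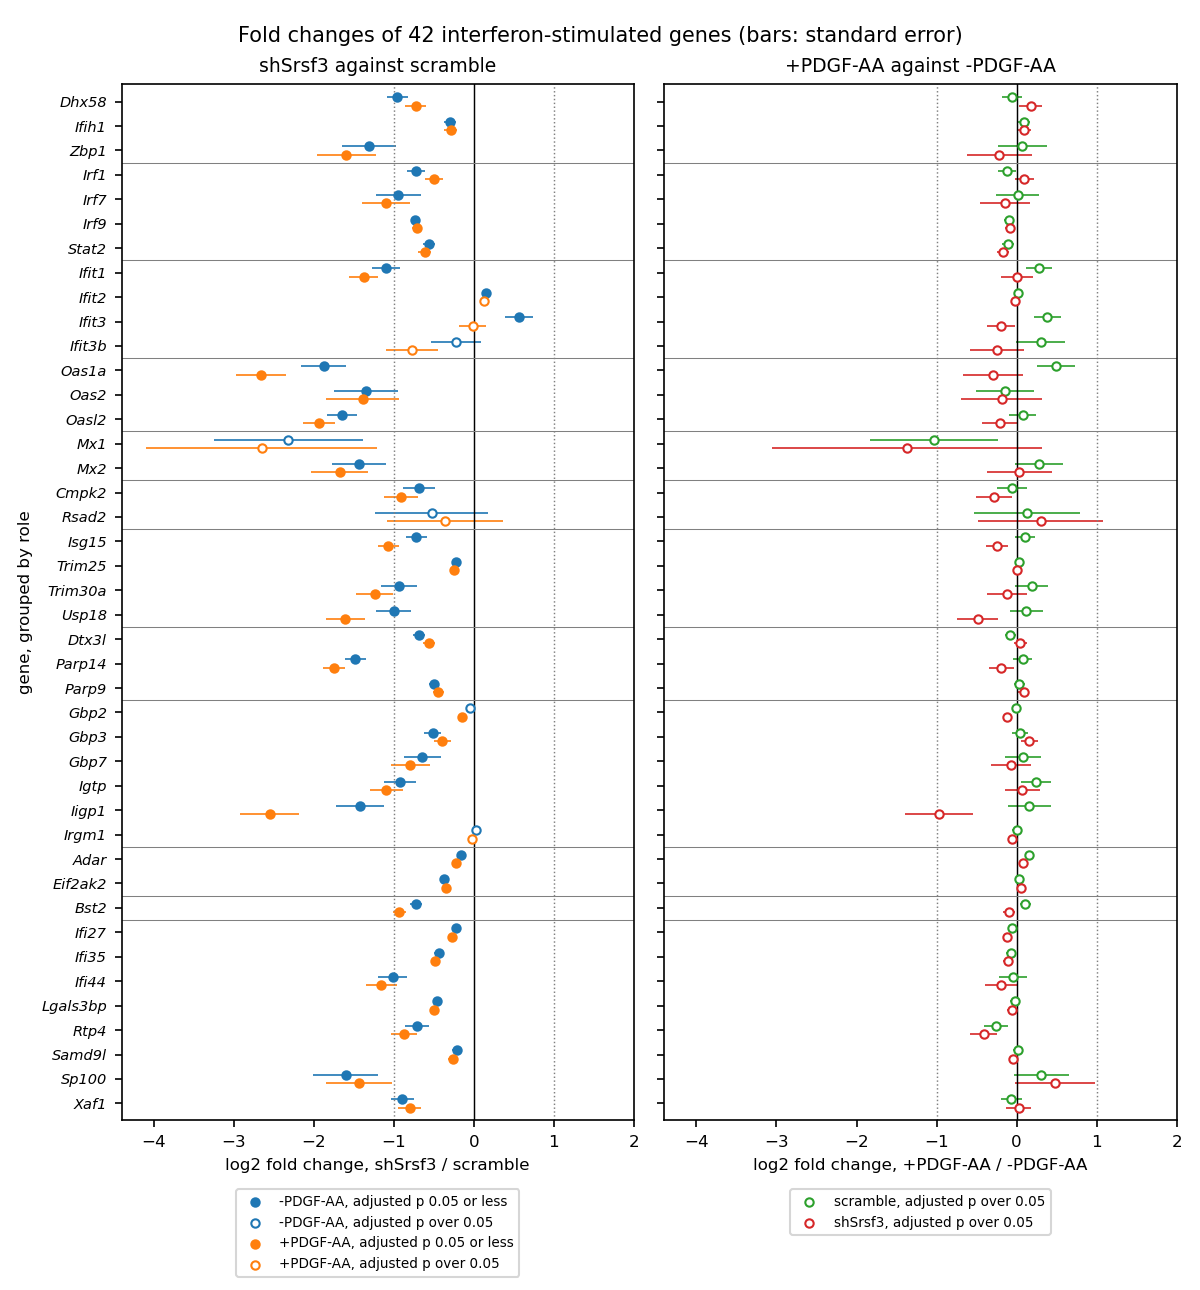
Log2 fold change with its standard error (x axes) of each of the 42 tested genes (rows, grouped by role), for shSrsf3 against scramble on the left and for +PDGF-AA against -PDGF-AA on the right; filled points have an adjusted p of 0.05 or less and dotted lines mark a 2-fold change. On the left 35 genes are filled below 0 without ligand and 36 with it, and on the right no point is filled.

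The median fall was larger among the 21 genes with the lower levels than among the 21 with the higher levels. Divided at the middle of the 42 by mean CPM over all 12 libraries, the 21 lower genes had a median log2 fold change of -0.96 without ligand and -1.16 with it, and the 21 higher genes -0.46 and -0.44. The 15 genes with a mean over 10 CPM ranged from -0.73 to 0.15 without ligand and from -0.93 to 0.13 with it, and 0 of these 15 were called with a 2-fold change. The 9 genes with a mean under 1 CPM ranged from -2.31 to -0.53 and from -2.66 to -0.36. The 6 genes that passed the filter only through scramble libraries are all among the 21 lower genes, and without these the 15 others had medians of -0.93 and -1.09, and the 3 others under 1 CPM ranged from -1.43 to -0.68 and from -1.67 to -0.91. These level classes were set after the values were seen and are a description, and low counts also spread fold changes more widely.

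**Figure D4:**
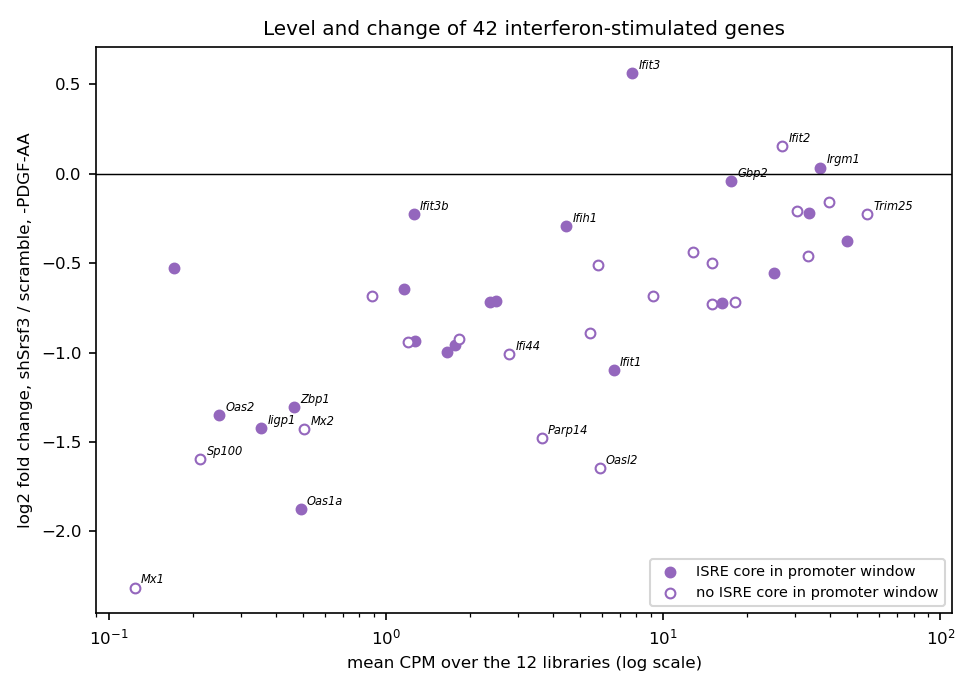
Log2 fold change of shSrsf3 against scramble without ligand (y axis) and mean CPM over the 12 libraries (x axis, log scale) for the 42 tested genes, filled where the promoter window holds the ISRE core. Points further left, which include the 6 genes that passed the filter only through scramble libraries, lie lower on the whole. *Ifit2*, *Ifit3* and *Irgm1* lie above 0, and filled and open points are found at every height.

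None of these genes was called for PDGF-AA at 1 hr, where few of all tested genes were called either. In scramble cells 0 of the 42 were called in either direction (2% of all tested genes were higher and 2.04% lower), and 2, *Adar* and *Ifit3*, had an unadjusted p under 0.05. In shSrsf3 cells 0 were called (0.426% of all tested genes were higher and 0.14% lower). There, 5 had an unadjusted p under 0.05, namely *Gbp2*, *Ifi27*, *Iigp1*, *Rtp4* and *Stat2*. The share of all tested genes with an unadjusted p under 0.05 was not counted, so these counts are no result about the 42 as a set. DESeq2's test also called 0 in both lines. For the 15 genes with a mean over 10 CPM the log2 fold changes lay between -0.12 and 0.15 in scramble and between -0.17 and 0.10 in shSrsf3 cells. *Bst2* changed by 0.11 ± 0.07 in scramble cells, with an interval of 1.96 standard errors from -0.03 to 0.25, and *Isg15* by 0.10 ± 0.12, from -0.14 to 0.34.

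For no single gene of the 42 was the difference between the lines called as changing with ligand. The interaction, which is the shSrsf3 effect with ligand minus that without it, was called for 0 of the 42 genes (0.0133% of all tested genes), and DESeq2's test called 0 too. Its unadjusted p was under 0.05 for *Ifit3* and for *Iigp1* (-1.13 ± 0.50 on the log2 scale, adjusted p = 0.874). The share of all tested genes with such a p was not counted.

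Other genes of the interferon pathway were read from a list of 51 that does not include the 43, and 36 of these were tested. In the absence of ligand 13 of the 36 were lower and 9 were higher, against 23.7% and 22.2% of all tested genes. With ligand 11 were lower and 11 were higher, against 20.7% and 20.3%. The interferons themselves were at or near 0, with 8 of the 12 listed genes at 0 in every library and at most 1 estimated count of *Ifnb1* and of *Ifng* and 4 of *Ifne* and *Ifnz* in any library. Of the receptors, *Ifnar1* was at 106, 110 and 114 CPM against 90.8, 87.2 and 86.5 CPM without ligand and at 111, 106 and 108 against 86.4, 87.9 and 88 CPM with it (-0.32 ± 0.04, adjusted p = 1.32e-05, and -0.31 ± 0.04, adjusted p = 1.74e-05). *Ifnar2* was lower by -0.37 ± 0.06 (adjusted p = 0.000146) and -0.24 ± 0.06 (adjusted p = 0.0044). The subunits of the interferon gamma receptor were higher instead, *Ifngr1* by 0.24 ± 0.05 and 0.18 ± 0.05 (adjusted p = 0.00204 and 0.0131) and *Ifngr2* by 0.11 ± 0.04 and 0.25 ± 0.04 (adjusted p = 0.0205 and 0.000108), as was *Il10rb*, shared by interleukin-10 and lambda interferon receptors (0.18 ± 0.04 and 0.22 ± 0.04, adjusted p = 0.00317 and 0.000763). *Ifnlr1* had at most 6 counts in any library and was not tested.

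The kinases *Jak1* and *Tyk2* did not pass the test in either comparison (log2 fold changes between -0.01 and 0.05). Of these pathway genes, 3 were called with a change of 1.5-fold or more. *Socs3*, a feedback inhibitor of cytokine receptors, was at 25.9, 23.2 and 23.3 CPM against 12.3, 11.4 and 12.8 CPM without ligand and at 27.2, 29.6 and 26.6 against 13.3, 13.7 and 14.2 CPM with it (-0.99 ± 0.06, adjusted p = 2.51e-08, and -1.02 ± 0.06, adjusted p = 2.49e-08). *Nlrx1*, a mitochondrial regulator of antiviral signaling, fell by 0.59 ± 0.09 (adjusted p = 0.000106) and, at just under that fold, by 0.58 ± 0.09 (adjusted p = 0.000175). *Rnaseh2c*, a subunit of the enzyme that clears RNA from DNA, rose by 0.30 ± 0.09 without ligand (adjusted p = 0.0177) and by 0.65 ± 0.10 with it (adjusted p = 0.000116).

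Markers of other cell types were checked beside these results. All 12 palatal mesenchyme markers were tested, with a summed level between 49500 and 52200 CPM in scramble and between 43900 and 47600 CPM in shSrsf3 libraries, so that the lines did not overlap. Of these 12, 7 were lower and 1 was higher without ligand, and 5 were lower and 1 was higher with it. Among all tested genes, 23.7% were lower and 22.2% higher without ligand, and 20.7% and 20.3% with it. This sum is mostly *Col1a1*, *Col1a2*, *Fn1*, *Col3a1* and *Vim*. Without ligand the means in scramble and shSrsf3 cells were 12480 and 9657 CPM for *Col1a2* and 9741 and 8306 CPM for *Fn1*. Those of *Vim* were 4327 and 5160 CPM, the other way, and *Pdgfrb* was level at 359.8 and 361 CPM. Of 9 immune markers 2 were tested and 4 were at 0 in every library, and the sum over the list was between 1.26 and 2.44 CPM in scramble and between 1.59 and 2.36 CPM in shSrsf3 libraries, so that the lines overlapped. The sum over 7 epithelial markers, 2 of them tested, was between 2.18 and 3.35 CPM in scramble and between 0.617 and 1.13 CPM in shSrsf3 libraries, and that over 6 endothelial markers, 4 tested, was between 30.6 and 34.7 CPM and between 19.4 and 23.1 CPM. The epithelial sum followed *Cdh1* (-2.25 and -1.95 on the log2 scale), and *Epcam* was not called. The endothelial sum followed *Tek* alone, with means of 30.6 and 20 CPM without ligand and 32.4 and 18 CPM with it, while *Cdh5* (2.33 and 2.82) and *Kdr* (1.24 and 0.91) were higher in shSrsf3 cells. The part of these in the results above was not tested. In bulk RNA, fewer cells with a high level and less RNA in each cell cannot be told apart.

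Salmon mapped a lower share of the reads in 3 libraries than in the other 9. These were replicates 1 and 2 of unstimulated and replicate 2 of stimulated scramble cells, so none was a shSrsf3 library. Stimulated scramble replicate 2 was the highest of its group for 24 of the 42 genes (57.1%), against 38.8% of all tested genes. Unstimulated scramble replicates 1 and 2 both lay above replicate 3 for 15 of the 42 (35.7%), against 36.9%. The part of this in the differences between the lines was not tested. With only the other 9 libraries, the medians of the 42 log2 fold changes were -0.71 without ligand and -0.69 with it. The medians over all genes tested in that fit were -0.0009 and -0.004. Some calls were lost in that fit, which leaves 1 unstimulated scramble library, assumed to vary like the other groups. Without ligand these were *Cmpk2* (-0.53, adjusted p = 0.172), *Irf7* (-0.39, adjusted p = 0.297), *Oas2* (-1.09, adjusted p = 0.181), *Rtp4* (-0.45, adjusted p = 0.0569), *Usp18* (-0.72, adjusted p = 0.0673) and *Zbp1* (-1.23, adjusted p = 0.0543), and the higher call of *Ifit2* (0.10, adjusted p = 0.304). With ligand they were *Gbp7* (-0.52, adjusted p = 0.0827), *Oas2* (-1.29, adjusted p = 0.0757) and *Sp100* (-1.40, adjusted p = 0.0501).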

How the data were processed

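RNA-seq (poly(A) RNA, Universal Plus mRNA-seq kit) of 12 iMEPM libraries was used. The authors quantified reads with Salmon 1.4.0 (GRCm39, per the submitters' processing notes) and deposited 1 table of estimated counts per gene, of which 16.3% of values were not whole. These counts were rounded, and tested with edgeR 4.0.16 in R 4.3.3 (glmQLFit and glmQLFTest, TMM scaling, filterByExpr with a count minimum of 10, 1 mean per group, all 12 libraries, Benjamini-Hochberg adjustment over 15037 genes). Calls required an adjusted p no higher than 0.05. CPM values (counts per unit of library size) use the TMM library sizes. DESeq2 1.42.0 was an alternative. Standard errors were taken as the log2 fold change over the square root of the F statistic. The biological coefficient of variation was 0.0701. The test was checked on simulated data.

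The 43 genes and all lists were chosen with earlier results of these data known. Per-library values and full statistics are given for genes called with a fold change of at least 1.5 in any comparison and for the highest per kilobase in each role. Values of *Adar*, *Gbp2*, *Ifit3*, *Ifit3b*, *Mx1*, *Rsad2* and *Samd9l* and of single cell type markers were added after they were seen. The rest are given by range. A gene of the pathway list is not reported here. Positions, transcript lengths, shared 31-base sequences and promoters came from GENCODE M39 on GRCm39, a later release than the one the study names, on the same build. Intervals of 1.96 standard errors cover the spread between libraries only. The replicate numbers did not pair libraries (correlations of same-numbered deviations from -0.142 to 0.201), so no block was used.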

Additional observations from a re-analysis of the deposited data

How the results depend on the processing

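The counts of genes lower in shSrsf3 cells stayed within 1.5 times of 35 and 36 under DESeq2's size factors, DESeq2's test, no count filter, the fit of only the 2 groups compared, equal depth and the fit of 9 libraries, and no called log2 fold change of a gene given with full statistics changed sign. Leaving out each library in turn gave 30 to 36 lower genes without ligand and 33 to 38 with it. The share of all tested genes called was not counted in any of these alternative fits. With a 2-fold minimum the counts were 10 and 15, and 6 and 11 without the genes that passed the filter only through scramble libraries. The 2 genes higher without ligand were less stable: 1 remained with the 9 libraries, 1 at equal depth and 0 with a 2-fold minimum, and leaving out 1 library gave 0 to 2, with 0 without scramble -PDGF-AA replicate 2 or shSrsf3 -PDGF-AA replicate 2. With ligand, 1 gene was higher when only the 2 groups compared were fitted, and 0 to 1 when 1 library was left out. For PDGF-AA in scramble cells 1 gene (*Ifit3*) was higher without a count filter and 0 to 1 with 1 library left out (*Adar*, without scramble -PDGF-AA replicate 3), and 1 interaction (*Ifit3*) was called without a count filter. The cause of these was not tested.

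Replicate numbers are shared by the groups but did not pair the libraries, since 2 of 18 same-numbered pairs had a correlation over 0.1. With the replicate block 36 genes were lower and 2 higher without ligand, and 37 were lower with it.

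*Mx1* was called lower in both comparisons without a count filter (-2.33, adjusted p = 0.00176, and -2.66, adjusted p = 0.0202). In that setting the lower calls with ligand of *Ifih1* (-0.30, adjusted p = 0.058) and *Gbp2* (-0.16, adjusted p = 0.07) were lost. With only the 2 groups compared, the lower calls of *Adar* without ligand (-0.15, adjusted p = 0.0591) and *Gbp2* with ligand (-0.14, adjusted p = 0.066) were lost. There *Mx1* was called lower without ligand (-2.31, adjusted p = 0.0468). At equal depth the lower call of *Gbp7* with ligand was lost (-0.69, adjusted p = 0.0561). *Ifit3b* was also called lower with ligand without a count filter (-0.78, adjusted p = 0.00562), with the replicate block (-0.77, adjusted p = 0.0497) and without scramble +PDGF-AA replicate 1 (-0.96, adjusted p = 0.0422). By DESeq2's test the lower call of *Gbp2* with ligand was lost (-0.14, adjusted p = 0.091). The cause of the calls lost when 1 library was left out was not tested.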
